A study of Mus musculus with 24 samples.

Results

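The comparison described here asks whether the response of mouse CD4 T cells to activation differs when the enzyme ATP citrate lyase, encoded by Acly, is lost. It is the interaction of genotype and activation: the change from rest to activation in knockout (KO) cells minus the same change in wild-type (WT) cells. It was taken on log2(RPM + 0.5), where RPM stands for reads per 1000000 of a library's total, over 12 of the 24 libraries of the series. The 12 libraries form the Acly cohort. They fall into 4 groups of 3: WT resting, KO resting, WT activated and KO activated. KO cells came from mice labelled CD4-Cre Aclyfl/f, in which Cre under the Cd4 promoter deletes the floxed gene. That promoter is active from the thymic stage at which T cells carry both Cd4 and Cd8, so the deletion is not limited to CD4 T cells and precedes their exit from the thymus. WT cells came from mice labelled Wt, whose Cre and floxed allele status the labels do not give. Activated cells were cultured for 24 h with stimulation of CD3 and CD28, and resting cells had none. The labels give no age or strain and leave it unsaid whether a group's libraries stem from separate animals. The p-values therefore reflect only the spread among these samples, which may be technical in part. The other 12 libraries belong to a Pdha1 cohort with its own controls and were not compared.

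ATP citrate lyase splits citrate that leaves the mitochondria into acetyl-CoA and oxaloacetate. The acetyl-CoA feeds cholesterol and fatty acid synthesis and the acetylation of histones. A resting T cell makes little of either lipid. Signals through the T cell receptor and CD28 switch it to growth, with induction of glycolysis, sterol synthesis through the transcription factor SREBP2, ribosome assembly and then the cell cycle, while transcripts of the quiescent state such as Klf2 are shut off.

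The libraries held 517689 to 668894 recovered counts at rest and 806545 to 1087675 after activation. The limit that a count of 0 allows, 3 counts, stood at 3.19 to 4.46 RPM in resting and at 2.26 to 3.21 RPM in activated libraries. This limit is called the floor here and covers counting error only. Receptor genes of smell (olfactory and vomeronasal) have no known role in T cells. They summed to 95847 to 110185 RPM at rest and 30239 to 41180 RPM after activation. Resting libraries were thus both shallower and held more background. At rest this background was 95847 to 106816 RPM in WT and 106687 to 110185 RPM in KO libraries, ranges that barely overlapped. All 9 defining markers of CD4 T cells were present in each group. Cd4 stood at means of 85.9 RPM in WT resting, 84.2 in KO resting, 266 in WT activated and 181 in KO activated libraries. WT resting 3 held less Cd4 than the others of its group, at 49.3 RPM against 103 and 105 RPM. Summed over the 9 markers, resting libraries ran from 360 to 690 RPM in WT and from 483 to 558 RPM in KO. Summed over those tested, erythroid and platelet markers ran from 74.3 to 1217 RPM in KO resting and from 28.2 to 553 RPM in KO activated libraries, highest in KO 3 in both, against 89.0 to 124 and 47.4 to 93.0 RPM in WT. Xist, an RNA of the inactive X chromosome, exceeded the Y-linked Ddx3y in WT 3, KO 2 and KO 3, both at rest and after activation. The sexes are thus mixed within groups, and in no group do all libraries stem from a single animal.

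Activation gave the same kind of response in both genotypes, and limma as fitted here called no single gene for a different response. Fitted as a linear model over all genes, limma called 0 of 31311 genes (0%) for the interaction at an adjusted p under 0.05, with a smallest adjusted p of 0.742. At an unadjusted p under 0.05 stood 1313 genes (4.19%), 527 with a positive interaction (1.68%) and 786 with a negative one (2.51%). A test on recovered counts with edgeR called 6 genes, and DESeq2 called 0. With DESeq2 the direction of the genes at an unadjusted p under 0.05 turned, to 268 positive and 118 negative. Without KO resting 3 it was 674 positive and 553 negative. By contrast, limma called 14147 genes for activation in WT cells (45.2%) and 14846 in KO cells (47.4%). These calls include background genes. Of the 1384 olfactory and vomeronasal receptor genes tested, limma called 748 as falls in WT and 782 in KO cells, 616 in both. Over all genes tested the falls were 7447 in WT (23.8%) and 8363 in KO cells (26.7%).

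Among the 14799 genes with at least 10 RPM in the highest group mean, 9738 were called for activation in the same direction in both genotypes. These were 89.5% of the 10875 calls in WT cells and 87.6% of the 11117 calls in KO cells, and 0 were called in opposite directions. Across these genes, which are not independent replicates, the response in KO cells followed the response in WT cells with a Pearson r of 0.95 and a Spearman rho of 0.917. The responses share no library. Among these genes were 651 of the background receptor genes, and the part of the background in the shared response was not tested. The interaction had an SD of 0.65 across genes against a median standard error (SE) of 0.58, and the WT response had an SD of 2.05. The spread of the interaction across genes was close to the SE of a single gene.

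**Figure D1:**
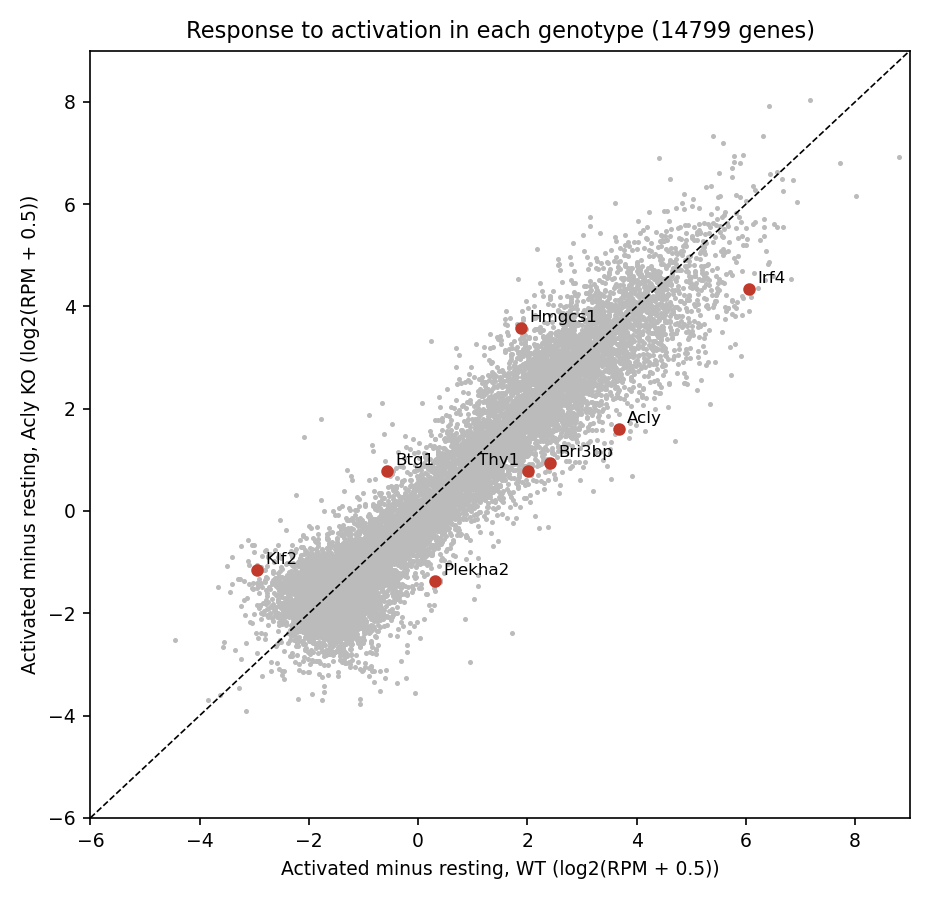
Activated minus resting in KO cells (y axis) against the same in WT cells (x axis), both on log2(RPM + 0.5), for the 14799 genes with at least 10 RPM in a group. The dashed line marks equal responses. The cloud follows it, and genes described in the text are marked in red: Hmgcs1, Btg1 and Klf2 lie above the line, and Acly, Thy1, Bri3bp, Plekha2 and Irf4 lie below it.

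An interaction can come from the activated groups, from the resting groups or from both. A gene's interaction is said here to be made by the activated groups where the difference KO minus WT after activation is at least 2 times that at rest, by the resting groups where the reverse holds, and by both otherwise. The interaction is the activated difference minus the resting one, so these are its parts and no separate evidence for it. Of the 631 genes with an unadjusted p under 0.05 and at least 10 RPM in a group, 147 were made by the activated groups (46 positive, 101 negative), 233 by the resting groups (128 positive, 105 negative) and 251 by both (64 positive, 187 negative). Both resting group means lay at or under the floor in 3 of the 147, in 65 of the 233 and in 22 of the 251 genes. An interaction made at rest therefore rested more often on a handful of counts.

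**Figure D2:**
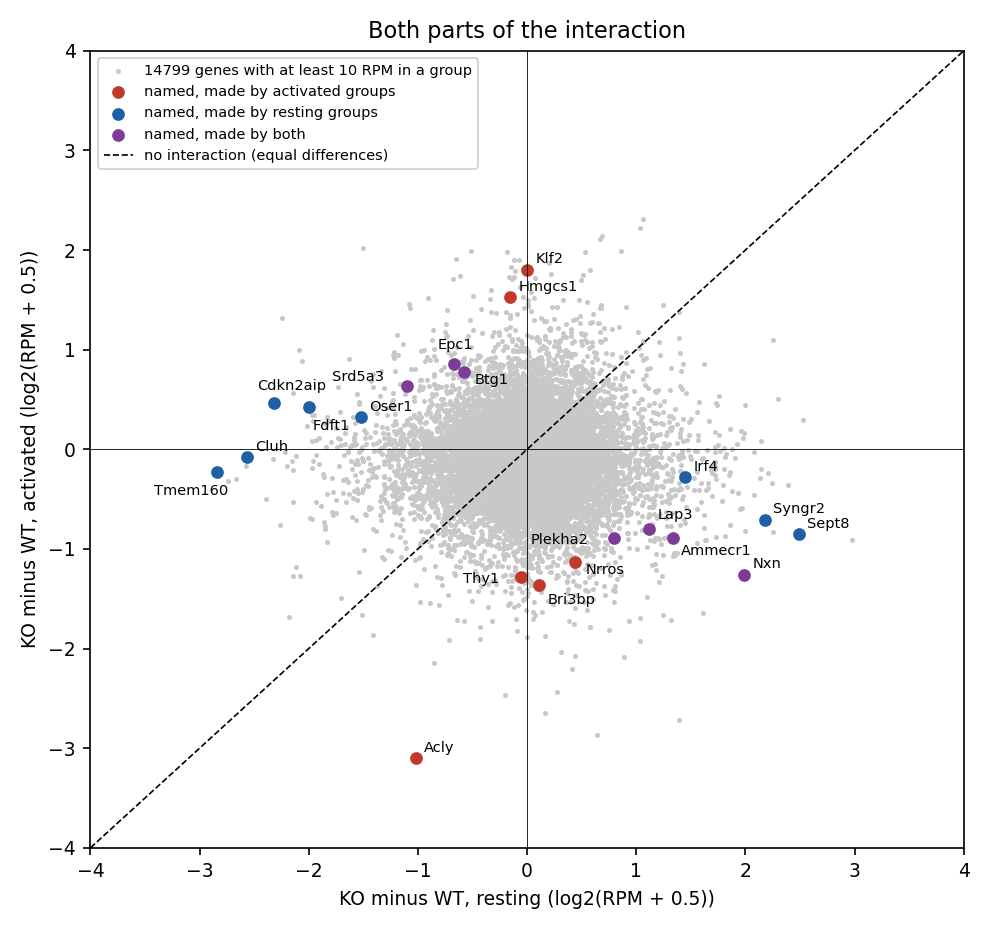
KO minus WT after activation (y axis) against KO minus WT at rest (x axis), both on log2(RPM + 0.5), for the 14799 genes with at least 10 RPM in a group (grey), with the interaction given by the distance from the dashed diagonal. The 20 genes named for the smallest p and Acly are coloured by the groups that make the difference: Klf2, Hmgcs1, Thy1, Bri3bp and Nrros sit near the vertical axis, and Fdft1, Cluh, Tmem160 and Irf4 near the horizontal one.

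Acly itself (ENSMUSG00000020917, GRCm38 chromosome 11, 100476353 to 100528000, minus strand) was the check of the labels. It stood at 5.80, 9.87 and 8.94 RPM in WT resting libraries, 8.0, 1.06 and 5.04 RPM in KO resting libraries, 104, 111 and 109 RPM in WT activated and 11.3, 10.6 and 15.0 RPM in KO activated libraries. All activated KO libraries lay far below all activated WT libraries, and the resting groups overlapped. Activation raised Acly by 3.67 in WT and by 1.60 in KO cells (limma, adjusted p = 4.8e-09 and 0.0029), an interaction of -2.07 ± 0.62 (SE) that did not pass (unadjusted p = 0.00179). The activated groups made it, with KO minus WT at -3.10 ± 0.44 against -1.02 ± 0.44 at rest. In activated cells Acly and Thy1 were the 2 genes that limma called between the genotypes (0.00639% of those tested), both lower in KO. At rest 0 genes were called, with 1745 at an unadjusted p under 0.05.

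None of the genes described from here on passed the threshold for the interaction by limma, and each named one had an adjusted p of 1.00. They are the 10 positive and 10 negative interactions with the smallest unadjusted p among genes with at least 10 RPM in a group, leaving out predicted gene models, clone names, genes without a symbol and receptor and immunoglobulin genes, the members of gene lists with the smallest p, and genes that earlier results of these data had named. The 20 genes of smallest p kept their direction in all 26 alternative settings. Those settings refit the libraries from which the genes were picked, so this is no separate support. For the list counts below, the shares over all genes tested were 44.9% with a positive interaction. At an unadjusted p under 0.05 they were 1.68% positive and 2.51% negative.

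The genes of cholesterol synthesis had mostly positive interactions, with higher levels in activated KO than in activated WT cells, and the activated groups made most of the difference. Of 21 listed enzymes, all tested, 18 (85.7%) had a positive interaction, with a median of 0.83, against 44.9% and a median of -0.09 over all genes tested. The median of KO minus WT was 0.66 after activation and -0.15 at rest. Summed over the list, the libraries held 202 to 285 RPM in WT resting, 186 to 255 in KO resting, 734 to 885 in WT activated and 1147 to 1384 in KO activated, so the activated groups did not overlap and the resting groups did. None was called for the interaction, and 5 of the 21 stood at an unadjusted p under 0.05, all positive, against 1.68% of all genes tested. The median ranged from 0.70 to 1.07 over the alternatives. In 4 of the 21 both resting means lay at or under the floor, and with Mvd, at 0 in all resting libraries, set to the floor the median was 0.90.

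The entry enzymes of the pathway came first. Hmgcs1 (ENSMUSG00000093930, chromosome 13, 119690379 to 119708260, plus strand) makes HMG-CoA from acetyl-CoA and acetoacetyl-CoA. It stood at 13.9, 9.87 and 26.8 RPM in WT resting libraries, 8.0, 20.3 and 16.4 RPM in KO resting libraries, 44.1, 71.0 and 64.8 RPM in WT activated and 226, 135 and 162 RPM in KO activated libraries. The resting groups overlapped, and every activated KO library held more than every activated WT library. Activation raised Hmgcs1 by 1.89 in WT and 3.57 in KO cells, an interaction of 1.68 ± 0.49 made by the activated groups (1.53 ± 0.34 against -0.15 ± 0.34 at rest). Acat2, which joins 2 acetyl-CoA into acetoacetyl-CoA, stood at 103, 105 and 105 RPM in WT and 175, 168 and 154 RPM in KO activated libraries, and at 4.26 to 10.1 RPM in the 6 resting ones. Its interaction of 0.99 ± 0.44 was likewise made by the activated groups.

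Of the late enzymes that turn squalene into sterols, some showed the same order and others did not. Lss, which closes the sterol ring system, stood at 15.1, 19.8 and 37.3 RPM in WT resting and 21.7, 18.1 and 22.7 RPM in KO resting, and at 26, 45.3 and 18.5 RPM in WT activated and 62.5, 57.7 and 48.4 RPM in KO activated libraries. Its activated groups did not overlap, and its interaction was 1.09 ± 0.49. The demethylase Cyp51 stood at 89.7, 99.3 and 80.1 RPM in WT and 175, 159 and 151 RPM in KO activated libraries, with 2.82 to 7.45 RPM at rest and an interaction of 1.00 ± 0.48. Msmo1, which acts after it, held 55.2, 54.9 and 52.3 RPM in WT and 79.5, 92.8 and 84.2 RPM in KO activated libraries, with an interaction of 0.76 ± 0.39. In Lss, Cyp51 and Msmo1 the activated groups made the difference. The isomerase Ebp averaged 66.7 RPM in WT and 60.8 RPM in KO activated cells (0.25 ± 0.47). Nsdhl, of the same late steps, averaged 9.63 RPM in WT and 19.4 RPM in KO activated cells. KO minus WT of Nsdhl was 0.97 after activation and 0.91 at rest, so its interaction was 0.07 ± 0.88. The resting means of Nsdhl, 1.27 RPM in WT and 2.34 RPM in KO cells, lay under the floor.

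By the groups that made the interaction, 10 of the 21 enzymes were made by the activated groups, 6 by both and 5 by the resting groups (Fdft1, Mvk, Ggps1, Tm7sf2 and Ebp). The squalene synthase Fdft1 (ENSMUSG00000021273, chromosome 14, 63145150 to 63179578, minus strand) had the largest interaction of the list, 2.42 ± 0.66, made by the resting groups. It stood at 4.64, 4.23 and 5.96 RPM in WT resting libraries and at 2.28, 0 and 1.26 RPM in KO resting libraries, which is 4, 3 and 4 counts against 2, 0 and 1. Activated WT libraries held 37.0, 67.0 and 42.5 RPM and activated KO libraries 79.5, 54.2 and 59.2 RPM, which overlapped. The 3 members with a negative interaction were Tm7sf2 at -0.92 ± 0.53, Mvk at -0.30 ± 0.71 and Sqle at -0.19 ± 0.84. Genes of sterol sensing and uptake had a median interaction of 0.14, 11 of 14 positive. Nr1h2 was at -0.91 ± 0.47, made by both states, and was lower in every activated KO than in every activated WT library. Srebf1 was at 0.97 ± 0.86, with both resting means at or under the floor. Mylip, which degrades the LDL receptor, was at 0.95 ± 0.70. Fatty acid synthesis, the other sink of cytosolic acetyl-CoA, had a median of -0.24, 6 of 16 positive, with a range of -0.31 to 0.01 over the alternatives. Its members differed. Scd2, at 0.97 ± 0.56, was higher in every activated KO than in every activated WT library. Elovl1, at -0.94 ± 0.64, was lower in every activated KO library. Both were made by the activated groups.

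Promoter sequence is shown for 4 of these enzymes because their levels were higher together in activated KO cells and the pathway is known for sterol response elements and CCAAT boxes near its start sites. The windows come from RefSeq promoters on GRCm38.p6, 250 bases before to 50 after each start, and run 5′ to 3′ along the gene. Only the 250 bases before the start were searched for motifs, here and in the shares below. Capitals mark the CCAAT box (CCAAT or, on the other strand, ATTGG) and, in Hmgcs1, the SRE-like motif (TCACNCCAC, searched on both strands). The windows lie at chr13:119690101-119690325 (plus strand), chr10:76531528-76531562 (plus strand), chr5:4104707-4104741 (minus strand) and chr8:64733614-64733753 (minus strand).
Hmgcs1: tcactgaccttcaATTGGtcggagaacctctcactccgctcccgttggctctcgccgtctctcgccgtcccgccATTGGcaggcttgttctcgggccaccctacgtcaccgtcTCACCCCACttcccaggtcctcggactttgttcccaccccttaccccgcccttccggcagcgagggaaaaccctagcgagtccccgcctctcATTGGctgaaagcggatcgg
Lss: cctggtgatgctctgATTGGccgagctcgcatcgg
Cyp51: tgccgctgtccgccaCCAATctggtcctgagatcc
Msmo1: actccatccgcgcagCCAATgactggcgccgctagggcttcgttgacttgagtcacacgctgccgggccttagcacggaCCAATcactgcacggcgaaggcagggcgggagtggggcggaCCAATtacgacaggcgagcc

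The Hmgcs1 window held the SRE-like motif 137 bases before the start and CCAAT boxes 237, 176 and 45 bases before it. The single boxes of Lss and Cyp51 lay 62 and 29 bases before the start, and those of Msmo1 lay 160, 96 and 55 bases before it. Acat2 was also higher in every activated KO than in every activated WT library. The 250 bases before its start held neither a CCAAT box nor the SRE-like motif and are not shown. Of the list, 16 of 21 genes matched the table by symbol, with 19 promoters. A CCAAT box was found in 15 of the 19 (78.9%) and in 33.9% of all 32851 promoters of the same length. The GC box (GGGCGG, both strands), which factors of the KLF and SP families bind, was found in as many, 15 of the 19, and in 32.7% of all. The SRE-like motif was found in 1 of the 19 and in 1.05% of all, and the E-box (CACGTG) in 3 of the 19 and in 6.02% of all. A match describes the letters and is not a shown binding site. Promoters of the G2 and M phase list, whose interactions pointed the other way, held the CCAAT box in 83.3%.

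**Figure D3:**
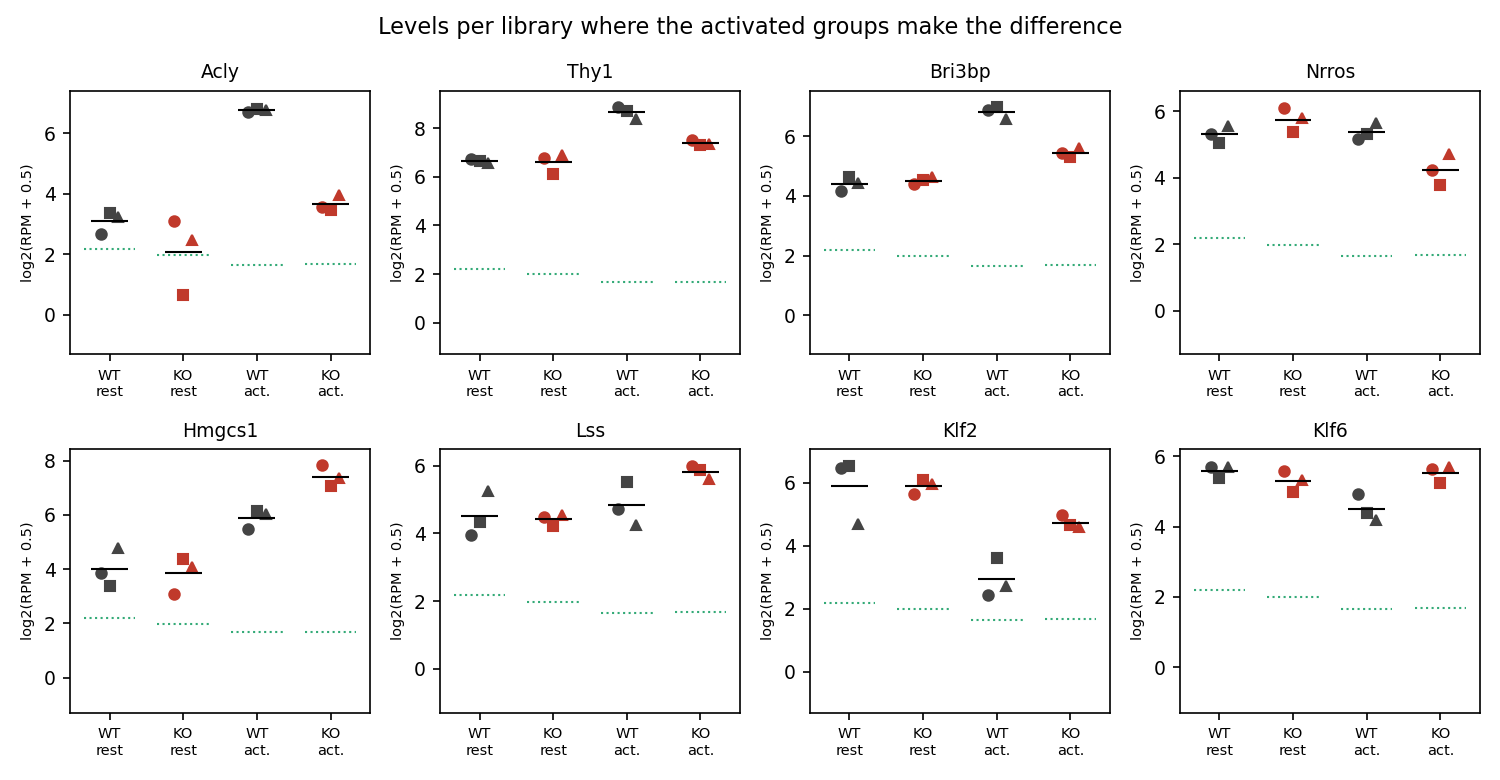
Level per library on log2(RPM + 0.5) (y axis) in the 4 groups (x axis) for 8 genes whose difference lies in the activated groups. Circles, squares and triangles are libraries 1, 2 and 3 (grey WT, red KO), bars are group means and dotted lines the mean floor of 3 counts: activated KO libraries lie below WT for Acly, Thy1, Bri3bp and Nrros and above it for Hmgcs1, Lss, Klf2 and Klf6, while the resting groups overlap.

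Transcripts of the quiescent T cell had mostly positive interactions, led by Klf2, Btg1 and Klf6. Of 24 genes of the naive and quiescent state, all tested, 16 had a positive interaction (66.7%, against 44.9% over all genes tested). Their median was 0.39, with a range of 0.16 to 0.58 over the alternatives. The median of KO minus WT was 0.24 after activation and -0.12 at rest. At an unadjusted p under 0.05 stood 5 of the 24, all positive, against 1.68% of all genes tested. Klf2 (ENSMUSG00000055148, chromosome 8, 72319033 to 72321656), a transcription factor that keeps T cells quiescent and recirculating, stood at 87.8, 92.3 and 25.4 RPM in WT resting libraries and 49.4, 67.5 and 62.1 RPM in KO resting libraries. Activated WT libraries held 4.99, 11.9 and 6.17 RPM and activated KO libraries 31.1, 24.8 and 23.6 RPM. WT resting 3 lay apart from the other 2 of its group, and the activated groups did not overlap. Activation changed Klf2 by -2.96 in WT and by -1.16 in KO cells (limma, adjusted p = 4.7e-08 and 0.012). The interaction of 1.80 ± 0.54 was made by the activated groups, with 0.00 ± 0.38 at rest, and by edgeR on counts it passed (2.06, adjusted p = 0.0157).

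Other members of the list lay in the same direction. Klf6, a related transcription factor, stood at 30.0, 20.6 and 17.6 RPM in WT and 49.5, 37.2 and 51.6 RPM in KO activated libraries, an interaction of 1.32 ± 0.42 made by the activated groups. S1pr1, the receptor for exit from lymph nodes and a known target of Klf2, was at 0.35 ± 0.50. The growth inhibitor Btg1 (ENSMUSG00000036478, chromosome 10, 96617006 to 96622809) was made by both states. It stood at 63.0, 56.6 and 70.4 RPM in WT resting libraries, 37.8, 37.4 and 53.2 RPM in KO resting libraries, 45.1, 37.3 and 45.2 RPM in WT activated and 87.3, 66.7 and 66.8 RPM in KO activated libraries. KO libraries all lay below WT at rest and above WT after activation, an interaction of 1.35 ± 0.38. Tcf7, Lef1 and Satb1, transcription factors of the naive state, went the other way at -0.25 ± 0.38, -0.49 ± 0.34 and -0.39 ± 0.36.

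The surface glycoprotein Thy1 led the negative interactions made by the activated groups. Thy1 (ENSMUSG00000032011, chromosome 9, 44043384 to 44048579) stood at 107, 99.5 and 93.0 RPM in WT resting libraries and 109, 68.6 and 119 RPM in KO resting libraries. Activated WT libraries held 472, 415 and 331 RPM and activated KO libraries 179, 157 and 161 RPM. The resting groups overlapped and the activated groups lay far apart. The rise with activation was 2.01 in WT and 0.78 in KO cells, an interaction of -1.22 ± 0.33 (unadjusted p = 0.00057). Of 16 genes of T cell identity, 14 had a negative interaction (median -0.29, with -0.37 after activation and -0.07 at rest), among them Cd4 at -0.60 ± 0.35 and Cd3d at -0.42 ± 0.37. This direction depended on the processing: the median was 0.06 without WT resting 3, and it was near 0 on counts with DESeq2 and -0.09 with edgeR. In bulk RNA, fewer cells of a type and less RNA per cell cannot be told apart.

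Bri3bp and Nrros followed the pattern of Thy1. Bri3bp (chromosome 5, 125441568 to 125460370) stood at 17.4, 24.0 and 20.9 RPM in WT resting libraries and 20.6, 22.4 and 24.0 RPM in KO resting libraries. Activated WT libraries held 117, 124 and 95.4 RPM and activated KO libraries 42.6, 39.0 and 48.4 RPM, an interaction of -1.47 ± 0.40. Nrros (chromosome 16, 32142785 to 32165594), which anchors latent TGF-beta, stood at 39.6, 32.5 and 46.3 RPM in WT resting libraries, 67.9, 40.6 and 54.5 RPM in KO resting libraries, 35, 38.9 and 49.6 RPM in WT activated and 18.2, 13.2 and 25.7 RPM in KO activated libraries. Activation changed Nrros by -1.51 in KO cells (limma, adjusted p = 0.000117), and its change in WT cells, 0.06, did not pass (adjusted p = 0.89), an interaction of -1.57 ± 0.44. For both genes the activated groups did not overlap and the resting groups did.

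Genes of mitosis and the G2 phase before it had mostly negative interactions, and the activated groups made most of the difference. Of 28 genes, all tested, 21 were negative and 7 positive (25%, against 44.9% over all genes tested). The median was -0.63, with -0.62 after activation and -0.02 at rest, and ranged from -0.84 to -0.53 over the alternatives. Summed over the list, activated libraries held 1258 to 1526 RPM in WT and 858 to 999 RPM in KO, against 282 to 452 and 300 to 395 RPM at rest. At an unadjusted p under 0.05 stood 5 of the 28 members, all negative, against 2.51% of all genes tested. In 8 members both resting means lay at or under the floor. Cdca8, a subunit of the chromosomal passenger complex, stood at 31.0, 40.5 and 31.8 RPM in WT and 17.4, 23.0 and 16.1 RPM in KO activated libraries with an interaction of -1.12 ± 0.49 made there. The mitotic cyclin Ccnb1 was at -1.10 ± 0.56 and Ube2c, which carries ubiquitin to mitotic cyclins, at -1.14 ± 0.69, both made by the activated groups. The motor protein Kif20a, at -2.75 ± 0.86, was made by the resting groups on 0 counts in WT and 2.28, 3.19 and 1.26 RPM in KO resting libraries, all near or under the floor. Ttk, Kif11 and Kif23 were positive, at 0.48 ± 0.60, 0.53 ± 0.65 and 0.65 ± 0.51.

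For genes of DNA synthesis, the S phase list had a median of -0.11, 12 of 27 positive, against -0.09 for all genes, and the median ranged from -0.39 without WT resting 3 to 0.12 with DESeq2. The difference between the S phase and mitotic lists was not tested. Rrm2, a ribonucleotide reductase subunit, was its clearest negative member: 799, 1013 and 822 RPM in WT and 631, 541 and 567 RPM in KO activated libraries, an interaction of -0.89 ± 0.40 made by the activated groups. Replication-dependent histones had a median of -0.47 (36 of 41 tested, 24 negative), but in 31 of the 36 both resting means lay at or under the floor. With the 23 members that had a group at 0 set to the floor, the median was -0.14.

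The transcription factor Irf4 was among the interactions of smallest p that were made by the resting groups. Irf4 (ENSMUSG00000021356, chromosome 13, 30749226 to 30766976), which the T cell receptor induces in step with signal strength, stood at 3.48, 2.82 and 1.49 RPM in WT resting libraries and at 6.86, 6.39 and 10.1 RPM in KO resting libraries. These are 3, 2 and 1 counts against 6, 6 and 8, and the WT resting mean of 2.60 RPM lay under the floor. Activated WT libraries held 199, 225 and 173 RPM and activated KO libraries 162, 160 and 168 RPM. KO libraries lay above WT at rest and below WT after activation, with KO minus WT at 1.45 ± 0.32 and -0.28 ± 0.32. The interaction was -1.73 ± 0.45. Activation raised Irf4 in both genotypes, by 6.06 in WT and 4.33 in KO cells (limma, adjusted p = 5.3e-19 and 1.2e-14).

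The other interactions of smallest p that were made at rest also rested on few counts. Cluh, which binds mRNAs of mitochondrial proteins, stood at 1.16, 5.64 and 7.45 RPM in WT resting libraries and 0, 1.06 and 0 RPM in KO resting libraries, and at 94.8, 85.5 and 94.5 RPM in WT and 92.7, 85.6 and 82.0 RPM in KO activated libraries (2.49 ± 0.68). The activated levels were nearly alike, and the interaction lay in 1, 4 and 5 counts against 0, 1 and 0. Tmem160, which encodes a mitochondrial membrane protein, had 2, 3 and 2 counts in WT and 0 in all KO resting libraries (2.62 ± 0.73). Syngr2, a vesicle membrane protein, had 0, 1 and 0 counts in WT and 2, 3 and 3 in KO resting libraries (-2.88 ± 0.73), and the septin Sept8 had 0 in WT and 2 in each KO resting library (-3.34 ± 0.91). For Tmem160, Syngr2 and Sept8 both resting means lay at or under the floor, so no difference at rest can be given and the interaction depends on the pseudocount. Syngr2 and Sept8 were lower in every activated KO than in every activated WT library, with Syngr2 at 41.1, 49.3 and 49.6 RPM in WT and 27.3, 31.0 and 26.8 RPM in KO. Oser1 (1.85 ± 0.56) and Cdkn2aip, which binds the tumour suppressor ARF (2.79 ± 0.88), were also made at rest. Cdkn2aip stood at 9.28, 11.3 and 10.4 RPM in WT and 0, 4.26 and 3.78 RPM in KO resting libraries.

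**Figure D4:**
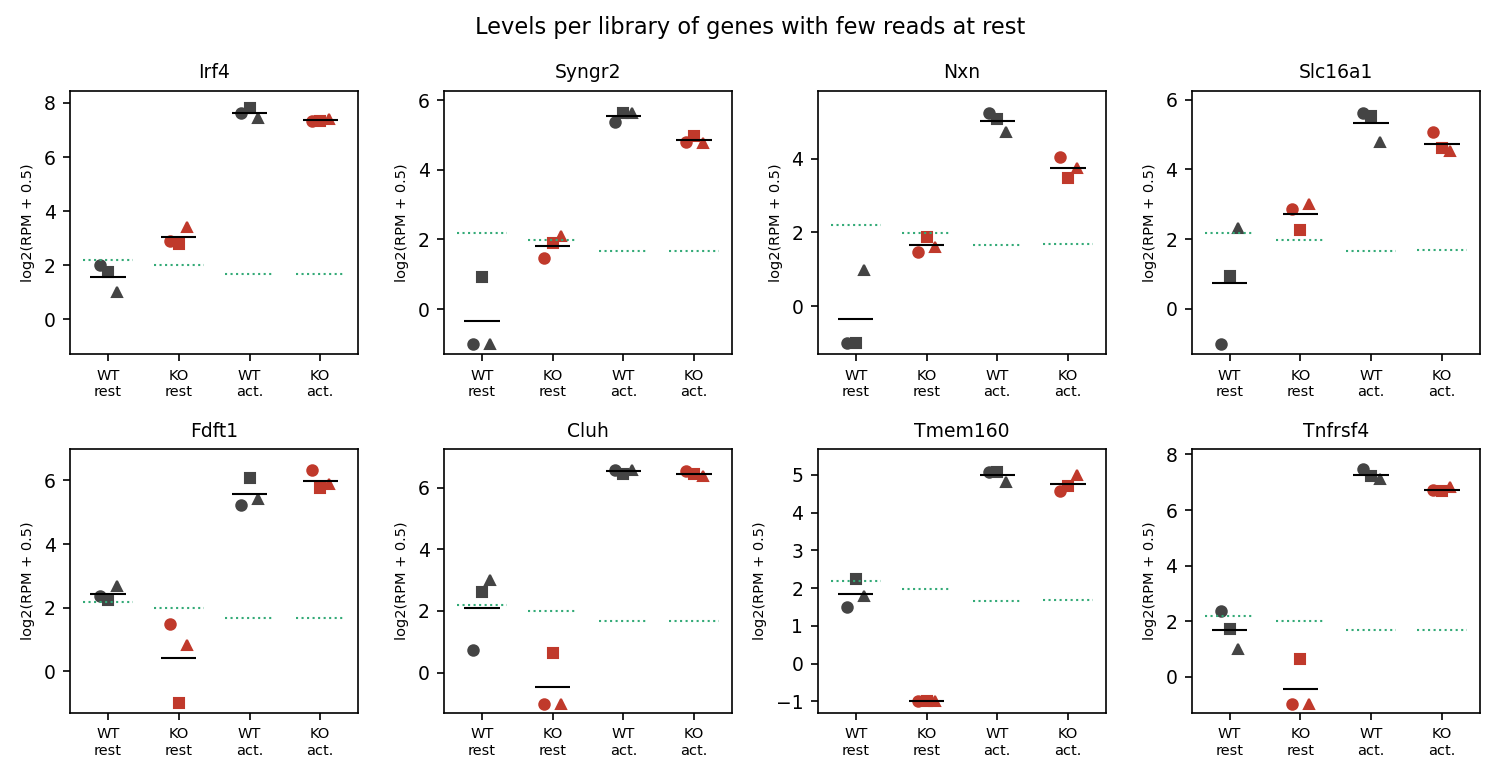
Level per library on log2(RPM + 0.5) (y axis) in the 4 groups (x axis) for 8 genes with few counts at rest, with the same symbols, bars and floor lines as in the plot of genes made by the activated groups. The resting libraries of Irf4, Syngr2, Nxn and Slc16a1 lie lower in WT (with a slight overlap for Slc16a1) and those of Fdft1, Cluh, Tmem160 and Tnfrsf4 lower in KO, mostly near or under the floor, while the activated libraries stand well above it.

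Of the genes named for their p, Plekha2 had the smallest and was made by both states. Plekha2 (ENSMUSG00000031557, chromosome 8, 25039144 to 25102376), an adaptor that binds the phosphoinositide PI(3,4)P2 made after receptor signalling, stood at 43.1, 39.6 and 56.8 RPM in WT resting libraries and 116, 63.2 and 69.8 RPM in KO resting libraries. Activated WT libraries held 68.3, 65.3 and 41.6 RPM and activated KO libraries 28.1, 35.4 and 28.9 RPM. The groups did not overlap in either state, and their order turned. KO minus WT was 0.79 ± 0.29 at rest and -0.89 ± 0.29 after activation, an interaction of -1.68 ± 0.41 (unadjusted p = 0.000197) that passed by edgeR on counts (-1.74, adjusted p = 0.0207). Activation changed Plekha2 by -1.37 in KO cells (limma, adjusted p = 0.000174), and its change of 0.31 in WT cells did not pass (adjusted p = 0.391).

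Other genes made by both states were less well measured. Nxn, the redox protein nucleoredoxin, stood at 37.0, 33.3 and 25.6 RPM in WT and 15.9, 10.6 and 12.8 RPM in KO activated libraries, while its resting libraries held 0 to 3 counts (-3.25 ± 0.81). Lap3, a leucine aminopeptidase, stood at 102, 121 and 81.0 RPM in WT and 70.2, 62.2 and 43.0 RPM in KO activated libraries, with 1.41 to 12.6 RPM at rest (-1.92 ± 0.56). Ammecr1 was at -2.23 ± 0.63. On the positive side, Epc1, a subunit of the NuA4 histone acetyltransferase complex, stood at 31.4, 38.2 and 20.9 RPM in WT resting libraries, 21.7, 13.9 and 20.2 RPM in KO resting libraries, 14.0, 25.3 and 31.8 RPM in WT activated and 44.1, 44.3 and 35.4 RPM in KO activated libraries (1.52 ± 0.48). Srd5a3, an enzyme of dolichol synthesis, was at 1.74 ± 0.54 with groups that overlapped in both states. Some genes overlap others on the opposite strand (Fdft1, Hmgcs1, Cyp51, Srebf1, Elovl1, Oser1, Cdkn2aip, Epc1, Plekha2, Wdr12, Cdca8, Ube2c, Kif20a, Mdh1, Eomes and Pax5) or on the same strand (Syngr2, Slc16a1, Mdh1, Idh2 and Itgam). These genes are uncertain to that extent, since the sources used here do not say how reads were assigned.

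Among genes of metabolism, a few single members had a small unadjusted p while the list medians lay nearer to 0. In acetyl-CoA supply (15 tested of 16, 10 negative, median -0.23) the lactate and pyruvate carrier Slc16a1 stood at 0, 1.41 and 4.47 RPM in WT and 6.86, 4.26 and 7.57 RPM in KO resting libraries and at 49.1, 46.1 and 27.4 RPM in WT and 33.4, 23.9 and 22.5 RPM in KO activated libraries. Its interaction of -2.55 ± 0.76 was made by the resting groups. Acss2, the enzyme that makes cytosolic acetyl-CoA from acetate, was at -0.00 ± 0.55, with means of 16.8, 15.0, 11.2 and 10.3 RPM in WT resting, KO resting, WT activated and KO activated cells. In the TCA cycle (median -0.01, 10 of 20 positive) Mdh1, the cytosolic malate dehydrogenase, was at 1.29 ± 0.51 and Idh2 at 1.39 ± 0.60. Both were lower in all KO resting libraries and overlapped after activation. At rest Mdh1 had 7, 5 and 4 counts in WT and 3, 1 and 3 in KO libraries. Idh2 had 7, 8 and 3 counts in WT and 2 in each KO library. Both KO resting means, 2.76 and 2.31 RPM, lay under the floor. Ogdh was at -1.19 ± 0.58, and at -0.45 without WT resting 3. Glycolysis had a median of -0.20, 12 of 20 negative, with nearly equal differences in both states (-0.29 at rest and -0.31 after activation), and its median was 0.01 by edgeR. Got1, which makes aspartate from oxaloacetate, stood at 302, 329 and 269 RPM in WT and 153, 178 and 157 RPM in KO activated libraries (-0.97 ± 0.43, made by the activated groups).

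Respiratory chain genes of the nucleus had a median of 0.07 (24 of 43 positive) and those of the mitochondrial genome 0.19 (10 of 13 positive, -0.32 at rest and -0.12 after activation). The latter spanned -0.00 to 0.53 over the alternatives. Ndufa10, a complex I subunit, at 1.21 ± 0.51, was made by the resting groups, at 9.28, 12.7 and 8.94 RPM in WT and 5.71, 2.13 and 7.57 RPM in KO resting libraries. Ribosome biogenesis had a median of -0.03 with 5 of 30 members negative at an unadjusted p under 0.05, against 2.51% of all genes tested. Among them Wdr12, a ribosome assembly factor, stood at 201, 163 and 136 RPM in WT and 87.3, 80.2 and 106 RPM in KO activated libraries and was made there (-0.90 ± 0.35).

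The medians of 5 further lists ranged from -0.17 to -0.00: glutamine and aspartate at -0.14 (6 of 15 positive), serine and one-carbon metabolism at -0.12 (7 of 16), the unfolded protein response at -0.15 (8 of 21), apoptosis and p53 at -0.00 (10 of 20) and cytokines and effectors at -0.17 (9 of 22, with 16 at or under the floor at rest). The 9 defining CD4 T cell markers, all of which the T cell identity list also holds, had a median of -0.30, all negative. Without WT resting 3 that median was 0.03.

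Genes of T cell activation had a median interaction of 0.06 (16 of 28 positive), close to the median of all genes. Its members differed: the early activation antigen Cd69 stood at 217, 207 and 173 RPM in WT and 118, 131 and 109 RPM in KO activated libraries (-1.08 ± 0.42, made by the activated groups). The costimulatory receptor Tnfrsf4 stood at 4.64, 2.82 and 1.49 RPM in WT and 0, 1.06 and 0 RPM in KO resting libraries and at 177, 148 and 138 RPM in WT and 104, 102 and 113 RPM in KO activated libraries. KO libraries of Tnfrsf4 thus lay below WT in both states, and its positive interaction of 1.62 ± 0.61 came from the resting groups, where both means were at or under the floor. Interferon-induced genes had a median of 0.34 (17 of 25 tested positive). Isg15 stood at 8.98, 5.53 and 2.64 RPM in WT and 18.2, 16.8 and 12.8 RPM in KO activated libraries (1.56 ± 0.60). This interaction was made by the activated groups, while Irf1, at 0.16 ± 0.45, and Ifit2, at -0.18 ± 0.77, lay within their SE of 0.

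**Figure D5:**
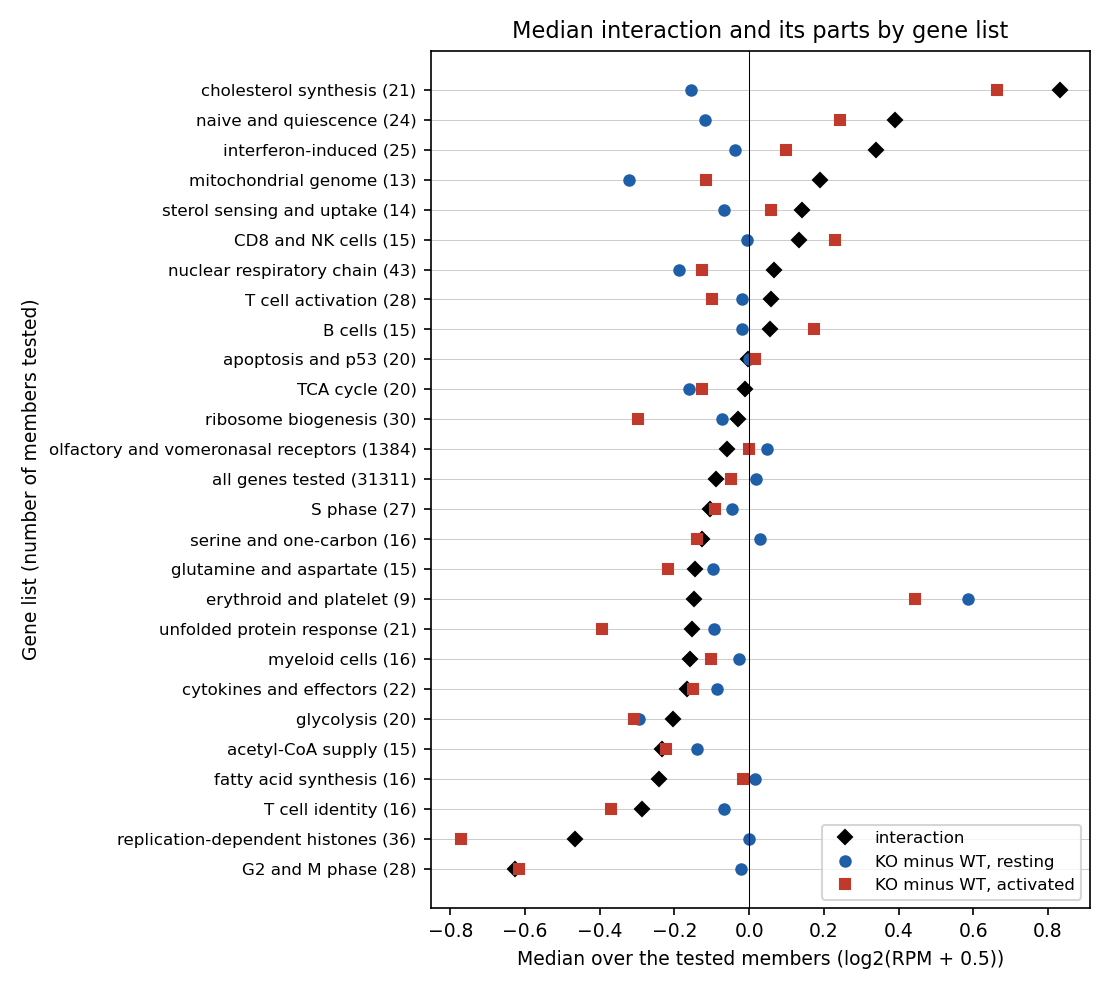
Median over the tested members of each gene list (y axis, number tested in brackets) of the interaction (black diamonds), of KO minus WT at rest (blue circles) and of KO minus WT after activation (red squares), on log2(RPM + 0.5). Cholesterol synthesis lies highest at 0.83 and the G2 and M phase lowest at -0.63, both close to their activated part, with all genes tested at -0.09.

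Markers of other cell types and background genes were taken the same way. The 1384 receptor genes tested had a median of -0.06, with 20 positive and 20 negative at an unadjusted p under 0.05. B cell markers had a median of 0.06, CD8 and NK cell markers 0.13, and myeloid markers -0.16. Erythroid and platelet markers (9 of 14 tested) had a median of -0.15 and were uneven within the KO groups. Their median was -0.87 with groups at 0 set to the floor, -1.43 without KO activated 3 and 0.44 without KO activated 2. That of the CD8 and NK cell markers was 0.61 without KO resting 1 and -0.05 without WT resting 1. Hba-a2, an alpha globin, stood at 24.0, 21.3 and 390 RPM in KO resting and 28.8, 4.41 and 187 RPM in KO activated libraries, so its interaction of -0.87 ± 2.09 rested on KO 3. Summed B cell markers ran from 123 to 205 RPM at rest and 163 to 199 RPM after activation over both genotypes, and myeloid markers from 149 to 181 and 108 to 132 RPM. CD8 and NK cell markers separated the genotypes after activation, at 64.3 to 78.9 RPM in WT and 99.0 to 101 RPM in KO libraries, against 76.7 to 95.4 RPM at rest. Eomes, a transcription factor of memory CD8 and NK cells that averaged 12.4 RPM in WT and 30.1 RPM in KO activated cells, gave most of this. The receptor Klrk1 averaged 3.82 and 6.30 RPM without overlap, and Cd8b1, with overlap, 8.16 and 12 RPM, while Cd8a averaged 1.72 and 1.34 RPM and the NK receptor Ncr1 0.263 and 0 RPM. In the B cell list the activated groups did not overlap for Cd74, the invariant chain of MHC class II, at 10.6 to 24.0 RPM in WT and 26.8 to 43.4 RPM in KO libraries. The B cell transcription factor Pax5 lay the other way, at 1.58 to 2.99 RPM in WT and 0 to 1.07 RPM in KO activated libraries. Among myeloid markers S100a8 and Elane were at 0 in all 12 libraries, while Itgam averaged 32.2 RPM in WT and 34.0 RPM in KO resting cells and Ctss 36.4 RPM in WT and 40.6 RPM in KO activated cells. The part of these cells in the interactions was not tested.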

How the data were processed

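RNA of CD4 T cells was sequenced from a single end over 75 bp after preparation with a stranded total RNA kit, per the labels' protocols. The authors deposited RPM values for 46981 genes in 24 libraries. The submitters' processing notes name GRCm38 and mm10, and the aligner and counter are not stated. Neither is given in the sources used here. Of the values, 100% came out as whole counts, within 0.01, once a saturation curve read from the values themselves (the form of a collision correction over 4096 identifiers, a step no label records) was inverted. In WT activated 1, where a count is worth 0.997 RPM, the steps alone could not tell whole reads from rounding. These recovered counts served edgeR 4.0.16 and DESeq2 1.42.0 as alternatives. Symbols and positions came from GENCODE M21 on GRCm38 (46206 genes matched, 775 unmatched, 68 repeats of a symbol).

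The 12 Acly cohort libraries were fitted with limma 3.58.1 (trend and robust, R 4.3.3) on log2(RPM + 0.5), in 4 groups sharing an estimate of spread, over genes that reached 1 RPM in 3 or more libraries. Adjusted p-values are Benjamini-Hochberg values, with 0.05 as the threshold. The pseudocount understates changes of low genes. Values after ± are SE of log2 differences. Named were Acly, the 10 positive and 10 negative interactions of smallest unadjusted p with at least 10 RPM in a group (no gene having passed; predicted models, clones, genes without a symbol and receptor and immunoglobulin genes left out), up to 3 members per list, and 22 genes named earlier. Genes that only an alternative called, and other list members, were chosen after their values were seen. The contrast, the members and the 26 lists were chosen with earlier results of these data known. The 26 alternative settings changed a choice at a time, where trend and robust went together and edgeR and DESeq2 also changed the input and scaling. The fit was checked on simulated data. No replicate pair was identical.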

Additional observations from a re-analysis of the deposited data

Results flagged for a closer look

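On recovered counts, edgeR's quasi-likelihood test called 6 interactions of genotype and activation, which limma on log2(RPM + 0.5) and DESeq2 did not. The predicted gene Gm35048 was at 2.31 (adjusted p = 0.000139), with 69.5, 133 and 30.0 RPM in KO activated libraries, 1 of them within the WT range of 19.0 to 33.6 RPM. It was made by both states.

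Taf1, a subunit of the basal transcription factor TFIID, was at -2.08 (adjusted p = 0.000638) and made by the activated groups. Its WT activated libraries stood at 201, 71.8 and 45.2 RPM, of which library 1 lay far above the other 2, and its KO activated libraries at 30.3, 32.8 and 37.6 RPM.

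The predicted gene Gm5277 was at -4.29 (adjusted p = 0.00714) and made by the resting groups, at 3.48, 1.41 and 1.49 RPM in WT and 6.86, 40.6 and 24.0 RPM in KO resting libraries. 6330419E04Rik, which overlaps Cntnap2 on the same strand, was at -3.59 (adjusted p = 0.0227) and made by the activated groups, at 27.0, 8.69 and 12.3 RPM in WT and 3.02, 0 and 4.28 RPM in KO libraries, with 5.32 to 54.0 RPM in KO resting libraries.

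Klf2 was at 2.06 and Plekha2 at -1.74 (adjusted p = 0.0157 and 0.0207). Their activated groups did not overlap.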

How the results depend on the processing

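No library or setting gave a larger set of interactions. limma called 4 genes with no filter (Arhgap26, Gm44432, Igsf8 and Gcsh), edgeR on counts called 6, and leaving out single libraries gave 0 to 1: Srm without WT resting 1, Gcsh without WT resting 3, Trmt112-ps1 without KO resting 2 and Gm44432 without KO activated 3. The other settings (pseudocounts of 0.1 and 1, a filter of 5 RPM, TMM-style scaling, quantile normalization, limma without trend and robust, all 24 libraries, covariates for background and for Xist above Ddx3y, and DESeq2) called 0. DESeq2 moved the median interaction of all genes from -0.09 to 0.06, and its values are relative to that shift. Acly was negative and not past the threshold in all 26, at -2.79 to -1.56 with a library left out. Of 4 genes named for other cell types the sign turned with a library left out: Cr2 (range -0.51 to 0.38; 0.38 without WT resting 2, 0.13 without KO resting 2, 0.08 without KO activated 2), Itgam (range -1.24 to 0.049; 0.049 without KO activated 2), Cst3 (range -1.38 to 0.30; 0.30 without WT resting 3) and Hba-a2 (range -2.19 to 0.49; 0.49 without KO resting 3, 0.44 without KO activated 2). Genes under about 10 RPM in all groups could not be judged at this depth.

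The labels number replicates 1 to 3 in each group without saying what the number stands for. Deviations from the group means correlated at 0.042 to 0.254 between same-numbered libraries of different genotype and at 0.072 to 0.269 within a genotype, so not every pair exceeded 0.1. As a hint from the data, 12 of 12 libraries correlated best with a library of their own number, and 11 of 12 did so among libraries of their genotype. With the replicate number as a block limma called 1 gene (Arhgap26), and with the block within genotype it called 3 (Arhgap26, 6330419E04Rik and Gm44432).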
